A study of Homo sapiens with 29 samples.

Results

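Insulin receptor signalling and its transcriptional feedback were followed through 10 genes in 2 prostate cancer cell lines treated with kinase inhibitors or an antiandrogen. The genes were INSR, IGF1R, ERBB3, IRS1, IRS2, PIK3IP1, FOXO1, FOXO3, KLHL24 and FBXO32. They were taken by name, through the gene identifiers of the deposited count tables, and are 10 of the 63677 annotated features counted. All 10 passed the filter on low counts in both lines, so none was lost.

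INSR and IGF1R are receptor tyrosine kinases for insulin and insulin-like growth factors, and ERBB3 is a kinase-impaired neuregulin receptor. IRS1 and IRS2 are adaptors that carry the receptor signal to phosphoinositide 3-kinase (PI3K), and from there to AKT and to the TOR kinase. AKT keeps the FOXO transcription factors out of the nucleus. When signalling to AKT is blocked, FOXO proteins can enter the nucleus and raise transcription of receptors and adaptors upstream of the block. This loop is known in many tumour cells as relief of feedback.

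RNA-seq was made from 29 libraries in 10 groups. C4-2, a castration-resistant derivative of LNCaP prostate cancer cells, gave 8 groups of 3 libraries, all grown in hormone-proficient medium: cells given 1 µM NU7441, 1 µM CC-115, 1 µM CC-223 or 1 µM enzalutamide (Enza) for 24 h, cells given each of the 3 inhibitors at 1 µM together with 1 µM Enza for 24 h, and Ctrl cells. 22Rv1, another castration-resistant prostate cancer line, grown in the same kind of medium, gave 2 libraries of cells given 1 µM CC-115 for 24 h and 3 Control libraries. NU7441 inhibits the DNA repair kinase DNA-PK, CC-115 inhibits DNA-PK and TOR kinase, CC-223 inhibits TOR kinase, and enzalutamide blocks the androgen receptor. The labels do not say what the Ctrl and Control cells received in place of a compound, and each condition was taken at 1 dose and 1 time.

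Each library held 29.58 to 44.91 M counted reads, and the 10 genes had 36 to 7589 reads per library. The labels do not say whether the libraries of a group came from separate cultures, so the p-values measure only the spread between these libraries, which may be technical. Levels are library-scaled counts (CPM, reads per M counted) after scaling by the trimmed mean of M-values (TMM), and they are shares of the RNA in a library: fewer expressing cells and less RNA of a gene per cell cannot be told apart. Library Enza 1 and library CC-115+Enza 1 stood apart from their groups, with a mean correlation of 0.9802 and 0.9803 with the other libraries of the group, against 0.986 to 0.995 for the other C4-2 libraries. In 22Rv1 the 2 CC-115 libraries had a correlation of 0.9808 with each other, and the Control libraries had means of 0.9844 to 0.9899. Of the 9 luminal prostate markers checked, summed levels were 1970 to 2340 CPM with Enza and 10000 to 10400 CPM with CC-115, against 4300 to 4470 CPM in Ctrl, while 3 basal markers together stayed at or below 0.487 CPM and 4 immune markers at or below 1.31 CPM. Taken singly at an adjusted p under 0.05, 6 of these 9 luminal markers were higher and 3 lower with CC-115. With Enza 0 were higher and 4 lower. Over all genes 27.6% were higher and 26.0% lower with CC-115, and 9.35% and 6.75% with Enza. Among the endothelial markers PECAM1 and CDH5 were below 0.1 CPM in every library and VWF averaged up to 3.79 CPM. The summed level of the 4 fibroblast markers, mostly COL1A1, was 4.01 to 12 CPM with Enza, against 2.04 to 3.34 CPM in Ctrl, and 12.8 to 16.4 CPM with CC-115, against 4.68 to 6.76 CPM in Control, in 22Rv1. DCN, also a fibroblast marker, averaged 0.14 CPM or less in every group, and the part of these markers in the results below was not tested.

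FOXO proteins bind the forkhead element TGTTTAC and, more loosely, the insulin response element AAAACAA. Both were searched on both strands (as GTAAACA and TTGTTTT too) in the 250 bases before each annotated start, in RefSeq windows of build GRCh38.p14. Windows were given for 8 of the genes, 12 windows in all, and ERBB3 and FBXO32 could not be searched. The forkhead element was in none of these 12 windows and in 2.98% of all 35116 windows. The insulin response element was in 2 of the 12 windows, those of IRS2 and KLHL24, against 6.64% of all windows. The windows of INSR, IGF1R, FOXO1 and FOXO3, not shown, held neither element. The lines below set the windows of IRS2 and KLHL24 beside those of IRS1, the other adaptor, and PIK3IP1, neither of which holds either element. They show the strand of the gene, 5′ to 3′, in lower case with the element in capitals. IRS2 is chr13:109786584-109786833 on the minus strand, KLHL24 chr3:183635373-183635622 on the plus strand, IRS1 chr2:226799821-226800070 on the minus strand and PIK3IP1 chr22:31292535-31292784 on the minus strand.
IRS2: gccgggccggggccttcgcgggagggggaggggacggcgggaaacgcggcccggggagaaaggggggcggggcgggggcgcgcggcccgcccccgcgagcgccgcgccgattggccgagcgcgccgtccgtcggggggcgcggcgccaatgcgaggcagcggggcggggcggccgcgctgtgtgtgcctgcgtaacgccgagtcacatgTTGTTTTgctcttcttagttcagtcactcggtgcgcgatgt
KLHL24: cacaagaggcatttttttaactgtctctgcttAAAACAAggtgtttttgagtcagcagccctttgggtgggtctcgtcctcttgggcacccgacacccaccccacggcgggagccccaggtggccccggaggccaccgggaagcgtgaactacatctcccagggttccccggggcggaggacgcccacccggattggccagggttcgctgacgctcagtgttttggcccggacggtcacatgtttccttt
IRS1: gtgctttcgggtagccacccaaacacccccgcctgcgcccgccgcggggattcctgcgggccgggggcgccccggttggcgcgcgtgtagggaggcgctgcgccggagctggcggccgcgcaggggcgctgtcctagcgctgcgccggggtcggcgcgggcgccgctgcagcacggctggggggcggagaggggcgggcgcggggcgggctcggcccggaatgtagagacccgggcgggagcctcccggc
PIK3IP1: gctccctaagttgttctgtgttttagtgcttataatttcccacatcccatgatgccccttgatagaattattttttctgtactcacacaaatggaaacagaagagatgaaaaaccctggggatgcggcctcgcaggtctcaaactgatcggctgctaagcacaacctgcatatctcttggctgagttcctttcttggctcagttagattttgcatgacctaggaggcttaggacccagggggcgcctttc
Counted back from the start, the element begins at base −41 in IRS2, as its reverse complement, and at base −218 in KLHL24, as written. IRS2 and IRS1 have GC-rich windows, at 76.4% and 80.8%, against 60.8% for KLHL24, 46.8% for PIK3IP1 and a median of 58.0% over all windows. Both elements were chosen with the expression values known, and a match is a run of letters, not a measured binding site.

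With inhibitors alone, CC-115 raised 9 of the 10 genes above Ctrl, CC-223 raised 8 and NU7441 raised 4. The threshold for a call was an adjusted p of 0.05, with the adjustment made over every gene tested. CC-115 also lowered ERBB3, and had a median log2 fold change of 0.78 over the 10, against 0.0338 over all 22860 genes tested. CC-115 moved much of the transcriptome, with 27.6% of all genes called higher and 26.0% lower. CC-223 lowered none (median 0.86, against 0.0657 over all genes), while 12.9% of all genes were called higher and 10.9% lower. NU7441 lowered none (median 0.30, against 0.0181), while 2.28% of all genes were called higher and 1.11% lower. Enza went in mixed directions, with 2 of the 10 higher and 4 lower (median 0.03, against 0.0624), against 9.35% of all genes called higher and 6.75% lower. These 4 comparisons share the same Ctrl libraries. The 10 genes were chosen with earlier results of these data known, so their counts may not be independent of those results.

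**Figure D1:**
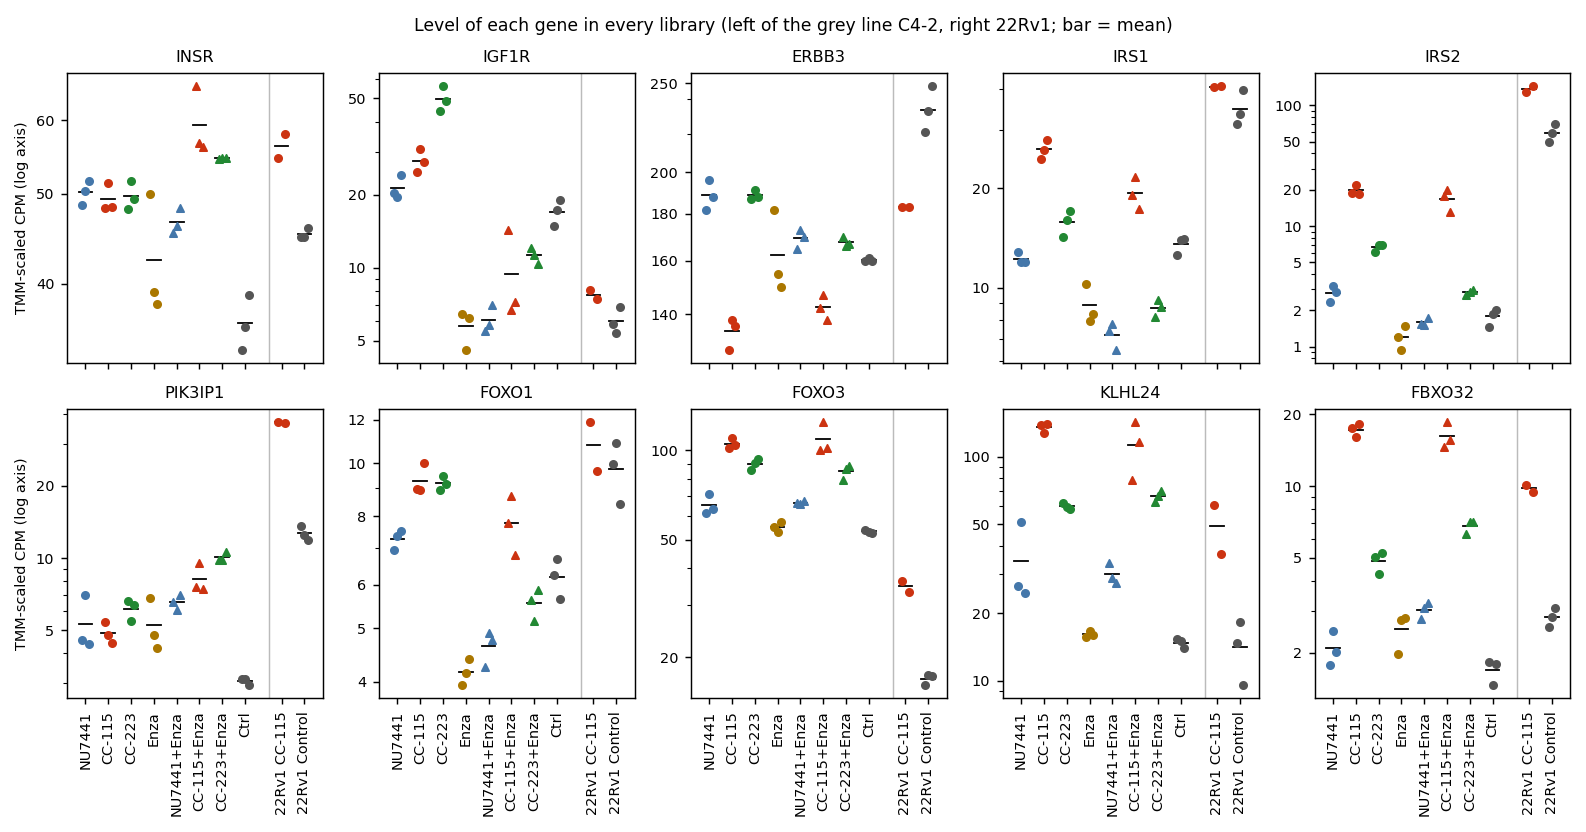
Level of each of the 10 genes in every library, as TMM-scaled CPM on a log axis; points are libraries, bars are group means, triangles are groups given an inhibitor with Enza, and the grey line separates the 8 C4-2 groups from the 2 22Rv1 groups. IRS2, KLHL24 and FBXO32 sit far above Ctrl in both groups given CC-115, while IGF1R is highest with CC-223 and low in every group given Enza.

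**Figure D2:**
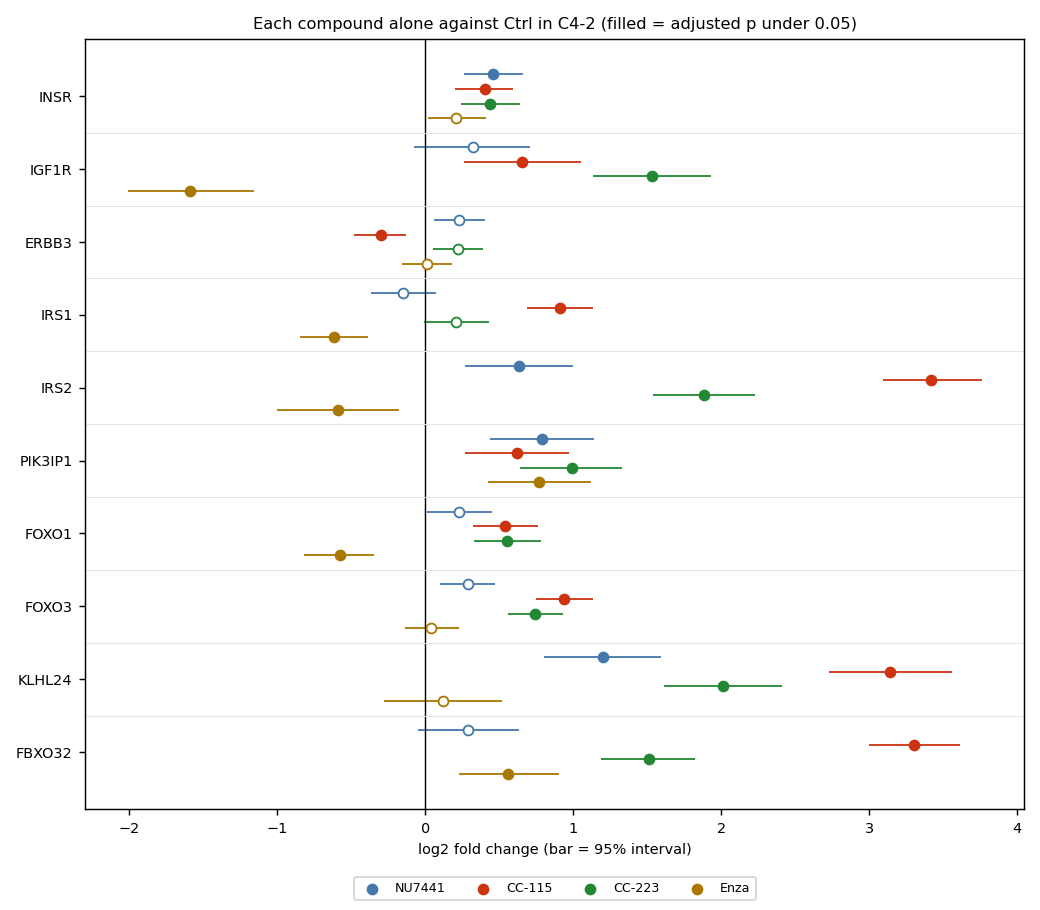
Log2 fold change of each gene in C4-2 cells given 1 compound, against Ctrl, with 95% intervals; filled points have an adjusted p under 0.05. The CC-115 points of IRS2, KLHL24 and FBXO32 lie above 3, ERBB3 is lower with CC-115 only among the 4 compounds, and IGF1R, IRS1, IRS2 and FOXO1 are lower with Enza.

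INSR, the insulin receptor (ENSG00000171105, chromosome 19, 7112266 to 7294045, hg19), rose by a like amount with each inhibitor. Its levels were 48.6, 50.3 and 51.6 CPM with NU7441, 48.3, 51.4 and 48.4 CPM with CC-115 and 48.2, 51.6 and 49.4 CPM with CC-223, against 34, 36 and 38.9 CPM in Ctrl. None of these treated libraries overlapped with Ctrl. The log2 fold changes were 0.46 ± 0.10 with NU7441 (SE, adjusted p = 0.00789), 0.40 ± 0.10 with CC-115 (adjusted p = 0.00103) and 0.44 ± 0.10 with CC-223 (adjusted p = 0.00149). Differences between the inhibitors were not called, with 95% intervals of −0.24 to 0.16 for CC-115 against CC-223, −0.26 to 0.13 for CC-115 against NU7441 and −0.17 to 0.22 for NU7441 against CC-223. Leaving out Ctrl 1, Ctrl 2 or NU7441 2 ended the NU7441 call (adjusted p = 0.11, 0.0779 and 0.0916). With Enza INSR was at 50, 39.2 and 38.1 CPM, of which Enza 1 and 2 lay above all Ctrl libraries, and was not called (0.21 ± 0.10, adjusted p = 0.129). The highest INSR group of all 10 was CC-115+Enza, at 59.3 ± 5.08 CPM (SD, n = 3), whose libraries overlapped with those of 22Rv1 given CC-115.

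IGF1R, the type 1 insulin-like growth factor receptor (ENSG00000140443, chromosome 15, 99192200 to 99507759, hg19), showed the widest contrast between compounds of the 3 receptors. It was at 44.3, 56.1 and 48.7 CPM with CC-223, 24.8, 31 and 27.3 CPM with CC-115 and 20.3, 19.5 and 24.2 CPM with NU7441, against 14.8, 17.3 and 19 CPM in Ctrl. With Enza it fell to 6.43, 4.58 and 6.18 CPM, against those same Ctrl libraries. The 5 groups did not overlap. CC-223 raised IGF1R by a log2 fold change of 1.53 ± 0.19 (adjusted p = 3.1e-06) and CC-115 by 0.65 ± 0.19 (adjusted p = 0.00538), and the NU7441 value of 0.32 ± 0.19 was not called (adjusted p = 0.417). The direct difference, CC-115 against CC-223, was −0.88 ± 0.19 (adjusted p = 0.000456), and NU7441 against CC-223 was −1.21 ± 0.19 (adjusted p = 0.00016). Enza gave −1.59 ± 0.21 (adjusted p = 3.49e-06), the largest fall of any of the 10 genes against Ctrl. The ratio of IGF1R to INSR per exon length was 0.772 ± 0.0659 with CC-223 and 0.105 ± 0.0181 with Enza, against 0.362 ± 0.0228 in Ctrl (SD, n = 3 each).

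ERBB3 (ENSG00000065361, chromosome 12, 56473641 to 56497289, hg19) had the highest level per exon length of the 10 genes in Ctrl, at 18.5 ± 0.0524 CPM per kb (SD, n = 3), and the narrowest range of group means over the 8 C4-2 groups, 0.54 on the log2 scale. It was at 128, 138 and 136 CPM with CC-115, against 160, 161 and 160 CPM in Ctrl, and was the 1 gene of the 10 that fell with CC-115 (−0.30 ± 0.08, adjusted p = 0.00327). No filter on low counts ended that call (adjusted p = 0.0886). With CC-223 it was at 187, 191 and 188 CPM and with NU7441 at 182, 196 and 188 CPM, in every library above Ctrl, but neither was called (0.22 ± 0.08, adjusted p = 0.0579, and 0.23 ± 0.08, adjusted p = 0.134). Each was called in 4 of 14 alternatives, DESeq2 among them (adjusted p = 0.0387 with CC-223 and 0.0391 with NU7441). CC-115 was lower than CC-223 by a called difference (−0.52 ± 0.08, adjusted p = 1.29e-05) and lower than NU7441 (−0.54 ± 0.08, adjusted p = 7.1e-06). With Enza it was at 182, 155 and 150 CPM, on both sides of Ctrl (0.01 ± 0.08, adjusted p = 0.959).

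IRS1 and IRS2, the adaptors, ran together over the 8 C4-2 group means (Pearson r = 0.88), but changed by different amounts with the inhibitors. IRS2 (ENSG00000185950, chromosome 13, 110406184 to 110438915, hg19) had 18.8, 22 and 18.6 CPM with CC-115, 6.10, 6.94 and 6.96 CPM with CC-223 and 2.36, 3.18 and 2.83 CPM with NU7441, against 1.46, 1.87 and 2.02 CPM in Ctrl. The 4 groups did not overlap, and CC-115 gave the largest change of the 10 genes. The log2 fold change was 3.42 ± 0.16 with CC-115, or 10.7-fold (adjusted p = 5.47e-15), 1.88 ± 0.17 with CC-223 (adjusted p = 1.78e-08) and 0.63 ± 0.18 with NU7441 (adjusted p = 0.0421). The NU7441 call was lost without Ctrl 1, 2 or 3 or NU7441 2 or 3 in turn (adjusted p = 0.0724 to 0.413) and with median-of-ratios scaling (0.0554), while CC-115 exceeded CC-223 by 1.54 ± 0.14 (adjusted p = 2.22e-09). An unnamed feature on the same strand shares 444 bases, or 6.34%, of the IRS2 exons, and reads there were not separated.

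IRS1 (ENSG00000169047, chromosome 2, 227596033 to 227664475, hg19) was at 24.5, 26.1 and 28.1 CPM with CC-115, against 12.6, 14 and 14.1 CPM in Ctrl, and rose by 0.91 ± 0.11 (adjusted p = 6.74e-08). With CC-223 it was at 14.3, 16.1 and 17.1 CPM, just above Ctrl in every library, and with NU7441 at 12.8, 12 and 12 CPM, overlapping with Ctrl. Neither was called (0.21 ± 0.11, adjusted p = 0.167, and −0.15 ± 0.11, adjusted p = 0.522). CC-115 was higher than CC-223 by 0.70 ± 0.11 (adjusted p = 6.4e-06). Enza lowered both adaptors: IRS1 fell to 10.3, 7.96 and 8.32 CPM (−0.62 ± 0.11, adjusted p = 0.000252), clear of Ctrl, and IRS2 to 1.2, 0.943 and 1.47 CPM (−0.59 ± 0.20, adjusted p = 0.0437), with the highest Enza library just above the lowest Ctrl library. The IRS2 call with Enza did not hold without Enza 1 and CC-115+Enza 1 (−0.58, adjusted p = 0.0905), nor without Ctrl 2, Ctrl 3, Enza 1 or Enza 2 in turn (adjusted p = 0.0753 to 0.131). Per exon length, the ratio of IRS2 to IRS1 was 1.08 ± 0.128 with CC-115, 0.60 ± 0.0184 for CC-223 and 0.325 ± 0.0584 for NU7441 (SD, n = 3 each), against 0.186 ± 0.0195 in Ctrl, so that the adaptor at the lower level in Ctrl reached the level of the other with CC-115.

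**Figure D3:**
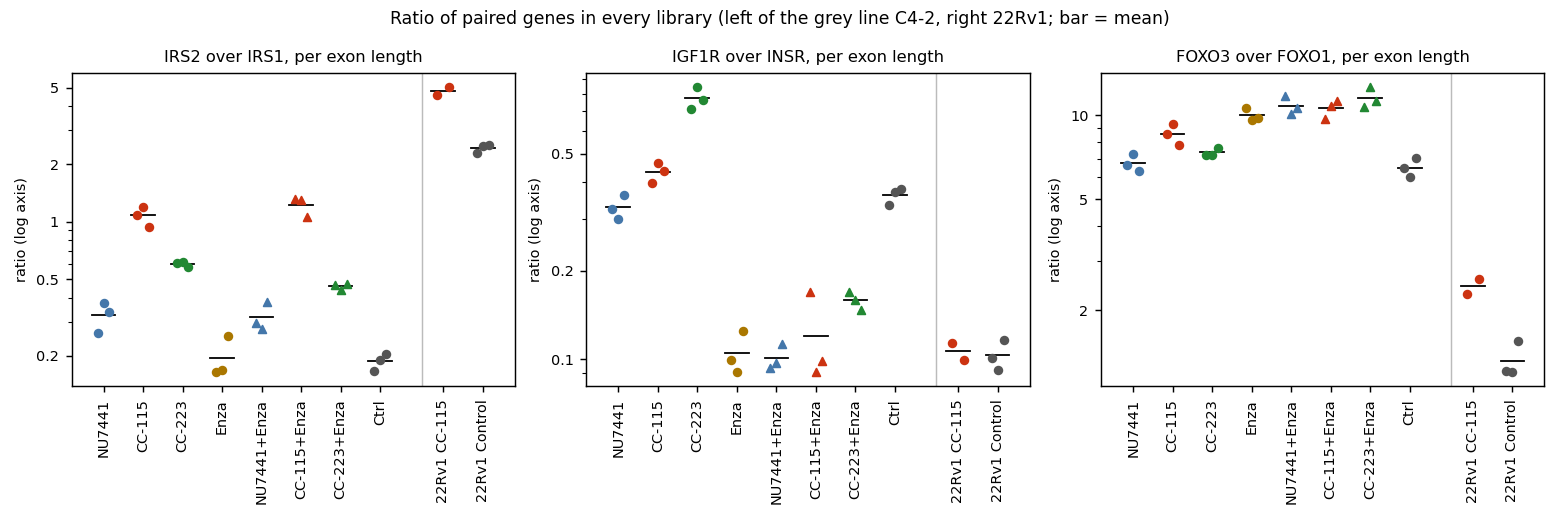
Ratio of 3 pairs of related genes per exon length in every library, on a log axis; points are libraries, bars are group means, and the grey line separates C4-2 from 22Rv1. IRS2 over IRS1 is near 1 in both C4-2 groups given CC-115 and above 2 in 22Rv1, IGF1R over INSR is highest with CC-223, and FOXO3 over FOXO1 is lowest in 22Rv1.

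PIK3IP1 (ENSG00000100100, chromosome 22, 31677579 to 31688520, hg19) encodes a membrane protein that binds PI3K and dampens it. It was higher with all 4 compounds. Its levels were 4.57, 7.04 and 4.36 CPM with NU7441, 5.40, 4.78 and 4.41 CPM with CC-115, 6.61, 5.44 and 6.36 CPM with CC-223 and 6.82, 4.79 and 4.23 CPM with Enza, against 3.12, 3.12 and 2.95 CPM in Ctrl. Every treated library lay above every Ctrl library. Log2 fold changes were 0.79 ± 0.17 with NU7441 (adjusted p = 0.00951), 0.62 ± 0.17 with CC-115 (adjusted p = 0.00312), 0.99 ± 0.17 with CC-223 (adjusted p = 0.000119) and 0.77 ± 0.17 with Enza (adjusted p = 0.00241). Without NU7441 2 the NU7441 value was 0.52 and not called (adjusted p = 0.265), and the call was also lost without any 1 of the Ctrl libraries (adjusted p = 0.057 to 0.0672). CC-115 and CC-223 did not differ by a called amount (−0.37, 95% interval −0.70 to −0.03, adjusted p = 0.0688). An antisense transcript, PIK3IP1-DT, shares 36 bases, or 0.95%, of its exons.

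FOXO3 was the more abundant of the 2 FOXO factors, at 6.50 ± 0.507 times FOXO1 per exon length in Ctrl (SD, n = 3). FOXO3 (ENSG00000118689, chromosome 6, 108881038 to 109005977, hg19) rose to 102, 110 and 104 CPM with CC-115 and 86, 90.9 and 93.4 CPM with CC-223, against 53.9, 53.2 and 52.6 CPM in Ctrl. Those groups were clear of each other, with log2 fold changes of 0.94 ± 0.09 with CC-115 (adjusted p = 2.33e-09) and 0.74 ± 0.09 with CC-223 (adjusted p = 2.1e-06). The direct FOXO3 difference, CC-115 against CC-223, was 0.20 ± 0.09 and not called (adjusted p = 0.0803), though it was called in 9 of 14 alternatives. NU7441 libraries, at 61.3, 71.2 and 63.4 CPM, all lay above Ctrl, yet the value of 0.29 ± 0.09 was not called (adjusted p = 0.0783), though it was with DESeq2 (0.0395). Enza gave 55.3, 53.1 and 57.2 CPM, overlapping with Ctrl (0.04 ± 0.09, adjusted p = 0.782).

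FOXO1 (ENSG00000150907, chromosome 13, 41129804 to 41240734, hg19) went up with both TOR inhibitors and down with Enza. It was at 8.97, 8.92 and 10 CPM with CC-115, 8.95, 9.47 and 9.17 CPM with CC-223 and 3.94, 4.14 and 4.39 CPM with Enza, against 6.26, 6.68 and 5.65 CPM in Ctrl. No library of these 3 treatments overlapped with Ctrl. The changes were 0.54 ± 0.11 with CC-115 (adjusted p = 0.000121), 0.55 ± 0.11 with CC-223 (adjusted p = 0.000469) and −0.58 ± 0.11 with Enza (adjusted p = 0.000689). The Enza call was lost in a fit of only the Enza and Ctrl libraries (−0.58, adjusted p = 0.051). The CC-115 and CC-223 values did not differ by a called amount (95% interval −0.23 to 0.20). With NU7441 it was 0.23 ± 0.11 (adjusted p = 0.278). The tables also count the processed pseudogenes FOXO1B and FOXO3B, and how reads that match both a gene and its copy were split is not given in the sources used here, so both FOXO levels are uncertain by that share.

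KLHL24 and FBXO32 were listed as known targets of FOXO factors, whose activity was not measured here. KLHL24 (ENSG00000114796, chromosome 3, 183353356 to 183402265, hg19) encodes a Kelch-like adaptor of a ubiquitin ligase. It had 138, 127 and 140 CPM with CC-115, 62.4, 59.3 and 58.5 CPM with CC-223 and 26.6, 51.1 and 24.6 CPM with NU7441, against 15.3, 15.1 and 14 CPM in Ctrl. All 3 inhibitors were clear of Ctrl, and library NU7441 2 stood well above the other 2 of its group. The log2 fold changes were 3.14 ± 0.20 with CC-115 (adjusted p = 1.17e-12), 2.01 ± 0.19 with CC-223 (adjusted p = 7.43e-08) and 1.2 ± 0.19 with NU7441 (adjusted p = 0.000784). Without NU7441 2 the NU7441 value was 0.77, over 1.5 times smaller, and still called (adjusted p = 0.0164). In a fit of only the NU7441 and Ctrl libraries it was 1.19 and not called (adjusted p = 0.0921). CC-115 exceeded CC-223 by 1.14 ± 0.19 (adjusted p = 1.62e-05), and Enza, at 15.6, 16.7 and 16 CPM and above Ctrl in every library, gave 0.12 ± 0.19 (adjusted p = 0.719).

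FBXO32 (ENSG00000156804, chromosome 8, 124510129 to 124553446, hg19) encodes atrogin-1, an F-box ubiquitin ligase subunit known as a FOXO target in wasting muscle. It was at 17.6, 16 and 18.2 CPM with CC-115 and 5.06, 4.28 and 5.24 CPM with CC-223, against 1.82, 1.46 and 1.79 CPM in Ctrl. These 3 groups did not overlap. CC-115 raised it by 3.30 ± 0.15, or 9.86-fold (adjusted p = 1.96e-15), and CC-223 by 1.51 ± 0.15 (adjusted p = 1.73e-07), and the difference between them was 1.8 ± 0.13 (adjusted p = 3.69e-11). NU7441 libraries, at 1.77, 2.47 and 2.01 CPM, overlapped with Ctrl and were not called (0.29 ± 0.16, adjusted p = 0.382). Enza libraries, at 1.97, 2.75 and 2.79 CPM, lay above Ctrl and were called (0.56 ± 0.16, adjusted p = 0.0196), a call lost without Ctrl 2, Enza 2 or Enza 3 in turn (adjusted p = 0.0702 to 0.114) and in a fit of only these 6 libraries (0.16).

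Between compounds at the same 1 µM and 24 h, CC-115 differed from CC-223 in 6 of the 10 genes. IRS1, IRS2, KLHL24 and FBXO32 were higher with CC-115 and IGF1R and ERBB3 lower, while 20.5% of all genes were called higher and 22.6% lower. Against NU7441, CC-115 was higher in 6 (IRS1, IRS2, FOXO1, FOXO3, KLHL24 and FBXO32) and lower in ERBB3, where 24.5% of all genes were called in each direction. The FOXO1 value there, 0.31 ± 0.11 (adjusted p = 0.0164), was not called with no filter on low counts (0.0853) or without NU7441 1 (0.0708). NU7441 was lower than CC-223 in 6 (IGF1R, IRS1, IRS2, FOXO3, KLHL24 and FBXO32) and higher in none, where 3.20% of all genes were called higher and 4.12% lower. The IRS1 value there, −0.36 ± 0.11 (adjusted p = 0.0425), did not stay under the threshold in any of the fits that omitted 1 of the 6 libraries (adjusted p = 0.0613 to 0.241). The KLHL24 value, −0.81 ± 0.19 (adjusted p = 0.00715), lost its call without NU7441 1 (−0.63, 0.0778), without NU7441 3 (−0.60, 0.0829) and in a fit of only those 2 groups (0.175). These 3 comparisons share libraries with each other.

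Added to Enza, CC-115 and CC-223 changed as many of the 10 genes as they did alone. CC-115+Enza against Enza raised 9 and lowered ERBB3, with 28.5% of all genes called higher and 30.2% lower. CC-223+Enza against Enza raised 8 and lowered none, with 13.0% of all genes called higher and 15.0% lower. NU7441+Enza against Enza raised KLHL24 alone, with 0.223% of all genes called higher and 0.157% lower, at 33.5, 28.7 and 27.4 CPM with NU7441+Enza, against 15.6, 16.7 and 16 CPM with Enza (0.90 ± 0.19, adjusted p = 0.037). That call was lost without Enza 1 (adjusted p = 0.134), without any 1 of the NU7441+Enza libraries (0.107 to 0.269), and without Enza 1 and CC-115+Enza 1 together (0.0737), where INSR, PIK3IP1 and FOXO3 were called instead.

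IRS2 was at 17.7, 19.8 and 13 CPM with CC-115+Enza and 2.67, 2.86 and 2.93 CPM with CC-223+Enza, against 1.2, 0.943 and 1.47 CPM with Enza. The CC-115+Enza value was 3.77 ± 0.17 (adjusted p = 2.93e-15), or 13.7-fold, and the CC-223+Enza value 1.22 ± 0.19 (adjusted p = 2.96e-05). All libraries of both groups were clear of Enza. KLHL24 reached 78.9, 143 and 116 CPM with CC-115+Enza and 63, 66.8 and 69.9 CPM with CC-223+Enza, against 15.6, 16.7 and 16 CPM with Enza (2.76 ± 0.20, adjusted p = 9.66e-12, and 2.03 ± 0.19, adjusted p = 6.21e-08). Library CC-115+Enza 1 was the low one for KLHL24. FBXO32 reached 14.6, 18.6 and 15.6 CPM with CC-115+Enza and 6.32, 7.04 and 7.06 CPM with CC-223+Enza, against 1.97, 2.75 and 2.79 CPM with Enza (2.65 ± 0.14, adjusted p = 4.03e-14, and 1.42 ± 0.14, adjusted p = 1.66e-07).

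On the TMM scale IGF1R lay below every Ctrl library in all groups given Enza. By total counts, library CC-115+Enza 1 was instead at 19.7 CPM, against 14.8, 17.4 and 20.1 CPM in Ctrl. After TMM scaling IGF1R was at 14.3, 6.67 and 7.18 CPM with CC-115+Enza and 12, 11.3 and 10.4 CPM with CC-223+Enza. With Enza it was at 6.43, 4.58 and 6.18 CPM. Both groups were clear of Enza, but library CC-115+Enza 1 was well above the others of its group. CC-223+Enza against Enza gave 0.96 ± 0.21 (adjusted p = 0.00116). CC-115+Enza against Enza gave 0.68 ± 0.21 (adjusted p = 0.00675), and without Enza 1 and CC-115+Enza 1 it was 0.31 and not called (adjusted p = 0.152), as it was without CC-115+Enza 1 alone (0.23, adjusted p = 0.21). ERBB3 was at 142, 147 and 138 CPM with CC-115+Enza, against 182, 155 and 150 CPM with Enza. Its called value of −0.23 ± 0.08 (adjusted p = 0.0218) was −0.11 without Enza 1 (adjusted p = 0.257). This ERBB3 call held in only 6 of 14 alternatives. It was also lost with no filter (0.31), a stricter filter (0.163) and protein-coding genes only (−0.06, 0.472). The other receptor, INSR, was called with CC-115+Enza (0.45 ± 0.10, adjusted p = 0.000255) and CC-223+Enza (0.35 ± 0.10, adjusted p = 0.00755). IRS1 was called with CC-115+Enza (1.09 ± 0.11, adjusted p = 4.42e-09) and not with CC-223+Enza (−0.04 ± 0.11, adjusted p = 0.834), nor was ERBB3 (0.03 ± 0.08, adjusted p = 0.825). PIK3IP1 rose by 0.60 ± 0.16 with CC-115+Enza and 0.92 ± 0.16 with CC-223+Enza, FOXO1 by 0.86 ± 0.11 and 0.40 ± 0.11, and FOXO3 by 0.94 ± 0.09 and 0.61 ± 0.09 in the same order. With only the 2 groups compared in the fit, the INSR (adjusted p = 0.0808), IGF1R (0.0907) and ERBB3 (0.375) calls with CC-115+Enza and the INSR (0.0749) and FOXO1 (0.0562) calls with CC-223+Enza were lost. The CC-223+Enza calls were also lost for INSR without Enza 3 (0.0964) and for FOXO1 without CC-223+Enza 3 (0.0591). Scaling by total counts in place of TMM would shift every log2 fold change of CC-115+Enza against Enza by 0.224, which brings the CC-115+Enza value of ERBB3 to about 0.

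Whether Enza altered the response to an inhibitor was tested as an interaction, the effect of the inhibitor on top of Enza minus its effect without Enza. None of the 10 genes was called in any of the 3 interactions. For all genes, the interaction was called in 0% with NU7441 (1548 genes at an unadjusted p under 0.05), 3.27% with CC-115 and 0.376% with CC-223. Across the 10 genes the values ranged from −0.47 to −0.01 with NU7441, from −0.65 to 0.35 with CC-115 and from −0.66 to 0.02 with CC-223. The lowest with CC-115 was FBXO32, at −0.65 ± 0.20 (95% interval −1.07 to −0.23, adjusted p = 0.0804), and it was called without Enza 1 (−0.78, adjusted p = 0.0196), without CC-115+Enza 2 (−0.73, adjusted p = 0.0404) and without Enza 1 and CC-115+Enza 1 (−0.74, adjusted p = 0.00954). The lowest with CC-223 was IRS2, at −0.66 ± 0.25 (95% interval −1.19 to −0.14, adjusted p = 0.395).

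**Figure D4:**
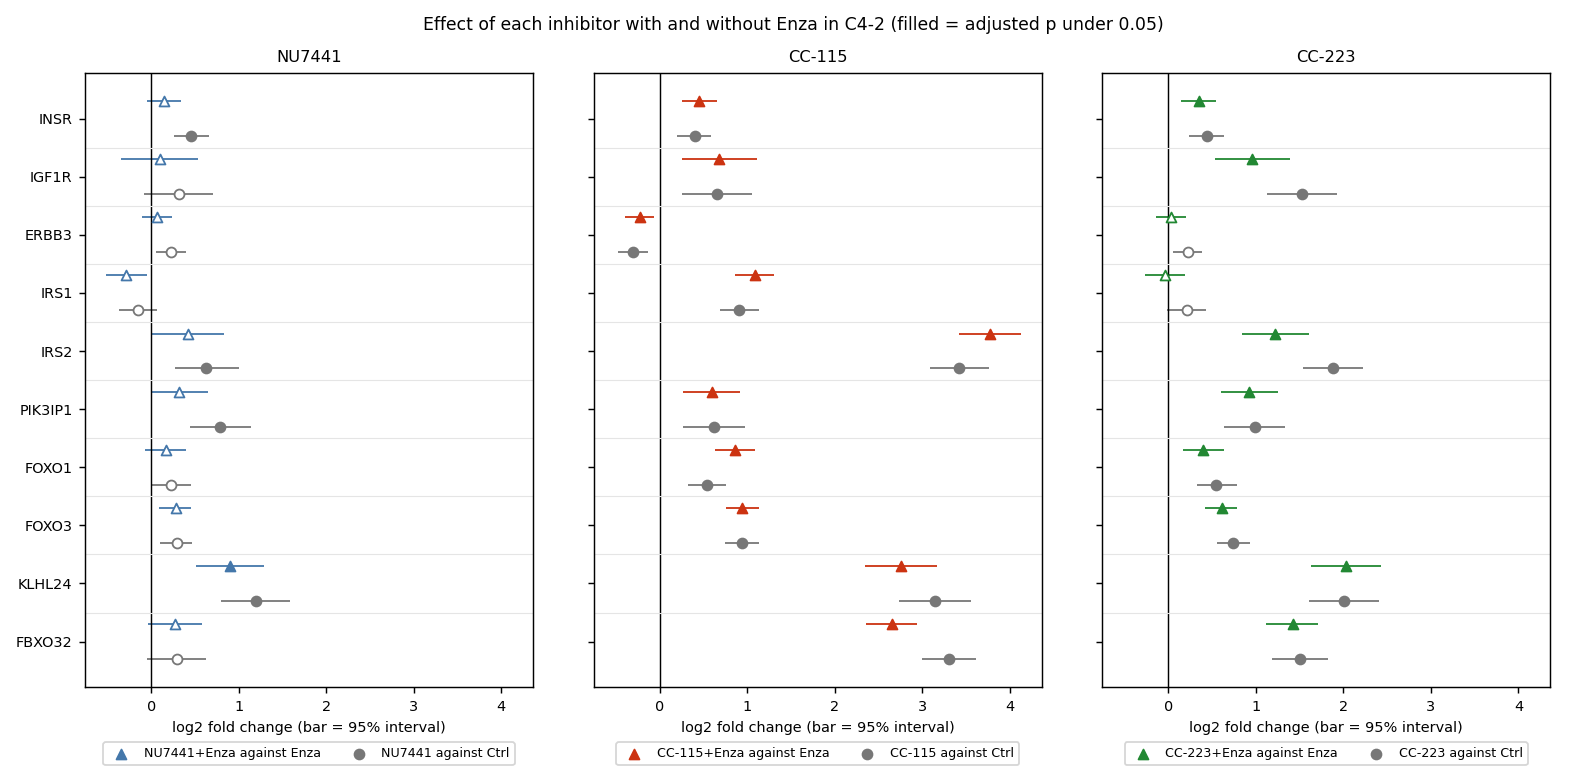
Log2 fold change of each gene for each inhibitor in C4-2, with 95% intervals: triangles compare the inhibitor with Enza against Enza, grey circles the inhibitor alone against Ctrl, and filled points have an adjusted p under 0.05. The pairs of points lie close together for most genes, with the widest gaps at FBXO32 for CC-115 and at IRS2 and IGF1R for CC-223, and no gap was called.

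In 22Rv1 cells CC-115 raised IRS2, PIK3IP1, FOXO3, KLHL24 and FBXO32 and lowered none, so 5 of the 10 genes were called. The median log2 fold change of the 10 was 0.74, against −0.0213 over all 19392 genes tested, of which 20.2% were called higher and 20.7% lower. IRS2 was at 130 and 144 CPM with CC-115, against 50, 58.6 and 70.4 CPM in Control (1.24 ± 0.18, adjusted p = 0.00159). PIK3IP1 was at 37 and 36.7 CPM with CC-115, against 13.6, 12.5 and 11.9 CPM in Control (1.58 ± 0.16, adjusted p = 0.000346). FOXO3 was at 36.3 and 33.3 CPM with CC-115, against 16.1, 17.4 and 17.3 CPM in Control (1.08 ± 0.15, adjusted p = 0.00134). In each of these the CC-115 libraries were clear of Control. KLHL24 was at 61 and 36.9 CPM with CC-115, against 14.8, 18.2 and 9.56 CPM in Control (1.82 ± 0.27, adjusted p = 0.00169), and was the most scattered of the 10 in this line. FBXO32 was at 10.1 and 9.44 CPM with CC-115, against 2.57, 2.83 and 3.08 CPM in Control (1.83 ± 0.19, adjusted p = 0.000388). ERBB3 was at 183 and 183 CPM with CC-115, against 221, 233 and 248 CPM in Control, below Control in both libraries but not called (−0.31 ± 0.12, adjusted p = 0.0765). Not called either were INSR (0.36 ± 0.14, adjusted p = 0.0694), IGF1R (0.40 ± 0.20, adjusted p = 0.138), IRS1 (0.26 ± 0.17, adjusted p = 0.25) and FOXO1 (0.19 ± 0.18, adjusted p = 0.44).

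Set against each other in 1 fit of both lines, the CC-115 effect differed between C4-2 and 22Rv1 in 5 of the 10 genes, where 27.5% of all 22922 genes were called. On the log2 scale the effect was larger in C4-2 for IRS2 (difference 2.13 ± 0.23, adjusted p = 2.07e-05), FBXO32 (1.42 ± 0.19, adjusted p = 0.000122), KLHL24 (1.27 ± 0.28, adjusted p = 0.00488) and IRS1 (0.59 ± 0.17, adjusted p = 0.0179). It was smaller in C4-2 for PIK3IP1 (−1.01 ± 0.16, adjusted p = 0.000473). In CPM the IRS2 rise was larger in 22Rv1, with means of 59.7 in Control and 137 with CC-115. The C4-2 means were 1.78 in Ctrl and 19.8 with CC-115. The KLHL24 difference was not called with no filter on low counts (adjusted p = 0.0635) and the IRS1 difference without CC-115 3 of C4-2 (0.0532). For INSR, IGF1R, ERBB3, FOXO1 and FOXO3 the difference was not called, with 95% intervals of −0.29 to 0.27, −0.24 to 0.64, −0.28 to 0.20, −0.08 to 0.68 and −0.45 to 0.06. The lines were counted in separate tables, so line and table cannot be told apart in their levels.

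**Figure D5:**
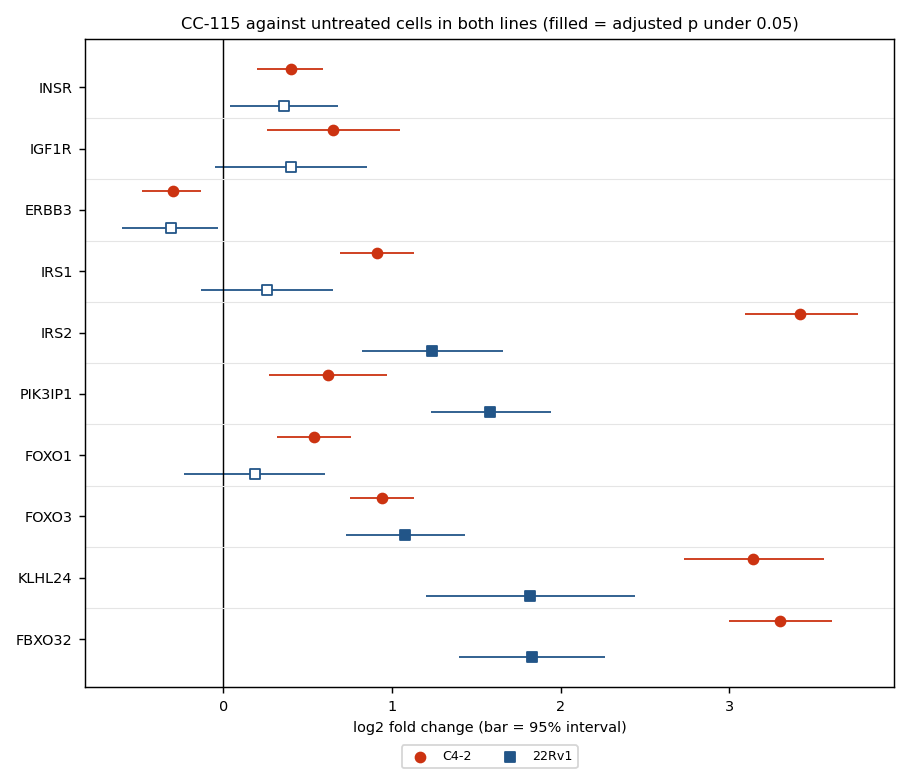
Log2 fold change of each gene with CC-115, against untreated cells, in C4-2 (circles, 3 libraries against 3) and in 22Rv1 (squares, 2 libraries against 3), with 95% intervals; filled points have an adjusted p under 0.05. IRS2, KLHL24 and FBXO32 lie further to the right in C4-2, and PIK3IP1 further to the right in 22Rv1.

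Untreated cells already differed in these genes. In C4-2 Ctrl against 22Rv1 Control 2 of the 10 genes were higher and 7 lower, where 38.6% of all genes were called in each direction. IRS2 averaged 1.78 ± 0.289 CPM in C4-2 Ctrl and 59.7 ± 10.2 CPM in 22Rv1 Control (SD, n = 3 each), a log2 difference of −5.00 ± 0.17 (adjusted p = 1.24e-11). PIK3IP1 averaged 3.06 ± 0.0943 CPM in C4-2 Ctrl and 12.7 ± 0.867 CPM in 22Rv1 Control (−1.99 ± 0.11, adjusted p = 1.61e-09). FOXO3, at 53.3 ± 0.645 CPM in C4-2 Ctrl and 16.9 ± 0.746 CPM in 22Rv1 Control, was higher in C4-2 (1.72 ± 0.08, adjusted p = 2.55e-10), as was IGF1R (1.56 ± 0.14, adjusted p = 1.44e-07). Lower in C4-2 were also IRS1 (−1.30 ± 0.11, adjusted p = 1.42e-07), FBXO32 (−0.67 ± 0.14, adjusted p = 0.000649), FOXO1 (−0.60 ± 0.12, adjusted p = 0.000429) and ERBB3 (−0.49 ± 0.08, adjusted p = 4.38e-05). Even with CC-115, the C4-2 level of IRS2, 19.8 ± 1.90 CPM, lay below 22Rv1 Control. KLHL24, at 14.8 ± 0.704 CPM in C4-2 Ctrl and 14.2 ± 4.35 CPM in 22Rv1 Control, was not called (0.12 ± 0.19, adjusted p = 0.577). Scaling by total counts would shift these differences by 0.352, which turns the INSR value of −0.26 ± 0.09 (adjusted p = 0.0151) to the other sign. That INSR call was also lost with median-of-ratios scaling (0.0657), with no filter on low counts (0.106), with protein-coding genes only (−0.11, 0.233) and without Ctrl 1 (0.0665) or Ctrl 2 (0.0512).

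Over the 8 C4-2 group means the log2 levels of KLHL24 followed those of FOXO3 (Pearson r = 0.99) and FBXO32 (r = 0.94), and IRS2 followed FOXO3 (r = 0.92) and KLHL24 (r = 0.91). IRS1 and IRS2 also ran with FOXO1 (r = 0.87 and 0.82). IGF1R ran with FOXO1 (r = 0.86) more than with KLHL24 (r = 0.34), and ERBB3 ran against FBXO32 (r = −0.73). These are descriptions over 8 points that share libraries, 1 cell line and large treatment effects. Of 4612 protein-coding genes with a range of group means of at least 1 on the log2 scale, those most like KLHL24 were YPEL5 (r = 0.998), ZKSCAN1 (0.995) and CALCOCO1 (0.995). Those most like IRS2 were DOCK5 (0.997), LPXN (0.994) and OFD1 (0.992), and those most like FBXO32 were CCDC191 (0.996), SKIL (0.993) and FKBP10 (0.992). For IGF1R they were ELK4 (0.99), PLPP6 (0.985) and PDE9A (0.984). FOXO3 was closest to KDM5B (0.99), HSF4 (0.989) and KLHL24 (0.987), and FOXO1 to MT-CO1 (0.983), CDYL2 (0.983) and SWT1 (0.976). IRS1 was closest to FAM151B (0.977), LIMCH1 (0.974) and MAP4K5 (0.974), and PIK3IP1 to EHBP1L1 (0.961), TSPOAP1 (0.958) and ARHGEF17 (0.956). INSR and ERBB3, whose group means span 0.66 and 0.54 on the log2 scale, were closest to TLCD5 (0.963) and VSIG10L (0.975).

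Of 24 other FOXO targets measured in C4-2, 15 rose and 6 fell with CC-115 (median 0.45), 10 rose and 1 fell with CC-223 (median 0.33), and 1 rose with NU7441 (median 0.14). With Enza 5 rose and 2 fell (median 0.12), and in 22Rv1 12 of 26 measured rose and 4 fell with CC-115 (median 0.44). Over all genes 27.6% were called higher and 26.0% lower with CC-115 in C4-2, 12.9% and 10.9% with CC-223, 2.28% and 1.11% with NU7441, 9.35% and 6.75% with Enza, and 20.2% and 20.7% with CC-115 in 22Rv1, with medians of 0.0338, 0.0657, 0.0181, 0.0624 and −0.0213 in that order. The autophagy gene GABARAPL1 rose by 1.91 ± 0.17 with CC-115 in C4-2 (adjusted p = 4.47e-10), by 0.48 ± 0.17 with CC-223 (adjusted p = 0.0369) and by 2.09 ± 0.16 with CC-115 in 22Rv1 (adjusted p = 0.000172). The autophagy kinase ULK1 rose by 1.39 ± 0.14 with CC-115 (adjusted p = 3.61e-09), 0.97 ± 0.14 with CC-223 (adjusted p = 1.43e-05) and 0.68 ± 0.14 with Enza (adjusted p = 0.0011). The death ligand TNFSF10, at a low average log2 CPM of 0.78, fell with CC-115 (−1.04 ± 0.22, adjusted p = 0.000219) and with CC-223 (−1.73 ± 0.24, adjusted p = 1.04e-05). With Enza TNFSF10 rose (1.03 ± 0.19, adjusted p = 0.00048). Catalase, CAT, fell with CC-115 (−1.21 ± 0.14, adjusted p = 4.08e-08). RBL2, a retinoblastoma family member, was the 1 gene of this list called with NU7441 (0.35 ± 0.09, adjusted p = 0.0346).

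Among 18 measured other receptors and adaptors, 5 rose and 5 fell with CC-115, 6 rose and 1 fell with CC-223, 2 rose with NU7441, and 6 rose and 1 fell with Enza. The medians were −0.11, 0.19, 0.21 and 0.25 in that order of compounds. The share over all genes was 27.6% higher and 26.0% lower with CC-115, so that count is near the background, and 12.9% and 10.9% with CC-223, 2.28% and 1.11% with NU7441 and 9.35% and 6.75% with Enza. ERBB2, the partner receptor of ERBB3, rose with CC-115 in C4-2 (1.14 ± 0.12, adjusted p = 7.64e-09) and in 22Rv1 (1.53 ± 0.16, adjusted p = 0.000445) and with Enza (0.77 ± 0.12, adjusted p = 3.31e-05). The docking protein GAB2 rose with CC-115 (1.38 ± 0.15, adjusted p = 1.94e-08) and CC-223 (0.75 ± 0.15, adjusted p = 0.000803). The fibroblast growth factor receptor FGFR1 fell with CC-115 (−1.40 ± 0.14, adjusted p = 3.47e-09), and MET, the hepatocyte growth factor receptor, fell with CC-223 (−1.33 ± 0.13, adjusted p = 1.1e-07). IGF2R (0.58 ± 0.13, adjusted p = 0.0173) and GRB10 (0.44 ± 0.10, adjusted p = 0.012) were the 2 that rose with NU7441.

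Of 15 PI3K subunits and lipid phosphatases 7 rose and 5 fell with CC-115 (median 0.19), 3 rose and 2 fell with CC-223 (median −0.01), 3 rose and 1 fell with Enza (median 0.06), and none was called with NU7441. Over all genes CC-115 had 27.6% higher and 26.0% lower, CC-223 12.9% and 10.9%, Enza 9.35% and 6.75% and NU7441 2.28% and 1.11%, and the CC-223 count is near that share. The regulatory subunit PIK3R3 fell with CC-115 in C4-2 (−2.20 ± 0.10, adjusted p = 3e-15) and in 22Rv1 (−2.17 ± 0.16, adjusted p = 0.000156). The phosphatases INPP5K (2.01 ± 0.13, adjusted p = 8.74e-13) and INPP4B (1.47 ± 0.14, adjusted p = 1.73e-09) rose with CC-115, and INPP4B fell with Enza (−2.55 ± 0.16, adjusted p = 4.59e-12). Of 11 other FOXO family members and regulators 2 rose and 6 fell with CC-115, 1 rose and 5 fell with CC-223, 2 fell with NU7441, and 1 rose and 2 fell with Enza. Of all genes 26.0% fell with CC-115, 10.9% with CC-223, 1.11% with NU7441 and 6.75% with Enza, and 27.6%, 12.9%, 2.28% and 9.35% rose. SKP2, a ubiquitin ligase subunit that targets FOXO1, fell with CC-115 (−2.45 ± 0.13, adjusted p = 2.25e-14), CC-223 (−0.79 ± 0.12, adjusted p = 2.74e-05), NU7441 (−0.47 ± 0.12, adjusted p = 0.0282) and Enza (−0.54 ± 0.12, adjusted p = 0.0022). The deacetylase SIRT1 rose with CC-115 (1.49 ± 0.12, adjusted p = 5.94e-11). FOXO6, itself a FOXO factor, fell with CC-115 (−2.14 ± 0.34, adjusted p = 7.79e-06) and rose with Enza (1.16 ± 0.25, adjusted p = 0.002), at a low average log2 CPM of 0. FOXM1 fell with CC-115 (−1.68 ± 0.13, adjusted p = 6.71e-11), CC-223 (−0.98 ± 0.13, adjusted p = 6.7e-06) and NU7441 (−0.51 ± 0.13, adjusted p = 0.0287).

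Of 12 insulin-like ligands and binding proteins 6 passed the filter in C4-2. IGF1, the main ligand of IGF1R, rose with CC-115 (1.11 ± 0.18, adjusted p = 8.3e-06) and fell with NU7441 (−0.89 ± 0.19, adjusted p = 0.00974) and Enza (−1.44 ± 0.20, adjusted p = 1e-05). The binding protein IGFBP3 rose in C4-2 with CC-115 (2.94 ± 0.13, adjusted p = 2.52e-15) and CC-223 (1.25 ± 0.14, adjusted p = 4.42e-07), and also in 22Rv1 given CC-115 (1.89 ± 0.10, adjusted p = 0.000112). IGFBP2 fell with CC-115 in C4-2 (−1.55 ± 0.17, adjusted p = 1.2e-08) and in 22Rv1 (−0.44 ± 0.14, adjusted p = 0.0347).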

How the data were processed

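RNA-seq counts per gene for 24 C4-2 libraries and 5 22Rv1 libraries were used as the authors deposited them, in a table per cell line. A stranded total-RNA kit was used, per the labels. Per the submitters' processing notes, the tools were STAR 2.5.2a, featureCounts 1.5.0-p3 and DESeq2 1.14.1, with build hg19; no source used here gives the counting options, so reads shared by copies or overlapping genes are uncertain.

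Counts were scaled by TMM and tested with edgeR 4.0.16 (quasi-likelihood, Benjamini-Hochberg adjustment, R 4.3.3, limma 3.58.1) after edgeR's filter on low counts. All 24 C4-2 libraries entered 1 fit and the 5 22Rv1 libraries another. A further fit, for the differences between lines, joined the 22Rv1 set to just those C4-2 cells given CC-115 alone and their Ctrl. Groups came from the labels. The code was tested on simulated counts. Fold changes are log2, ± SE. Replicates differed beyond counting noise (lowest chi-square per degree of freedom 4.01).

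The 10 genes, the pathway and marker lists and the promoter elements were chosen with earlier results of these data known. The 10 genes could be named in every comparison, whatever their values; from each pathway list up to 4 called genes with the largest change could be named, and the 3 genes most like each of the 10. Alternatives were other scaling, filters, designs, DESeq2 1.42.0 and leaving out libraries.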

Additional observations from a re-analysis of the deposited data

Results flagged for a closer look

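In 5 of the 10 genes the CC-115 effect differed between C4-2 and 22Rv1 by a test of the difference itself, in edgeR, where 27.5% of all 22922 genes were called. The effect in C4-2 minus that in 22Rv1 was 2.13 for IRS2, 1.42 for FBXO32, 1.27 for KLHL24, 0.59 for IRS1 and −1.01 for PIK3IP1 on the log2 scale. IRS2 started from a mean of 1.78 CPM in C4-2 Ctrl, against 59.7 CPM in 22Rv1 Control. Each line was counted in a table of its own, and scaling by total counts would move all 5 by 0.268, which changes the sign of none. The KLHL24 difference was not called with no filter on low counts (adjusted p = 0.0635), nor the IRS1 difference without CC-115 3 of C4-2 (0.0532). The summed fibroblast markers were 12.8 to 16.4 CPM with CC-115, against 4.68 to 6.76 CPM in Control, in 22Rv1, and 3.4 to 3.81 CPM with CC-115, against 2.04 to 3.34 CPM in Ctrl, in C4-2, and their part in these differences was not tested.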

How the results depend on the processing

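Of 85 calls among the 10 genes, 65 held under every alternative run, and no called value changed sign in those fits. Total-count scaling, applied only as a shift, turns the sign of INSR between untreated lines. Numbers of genes called moved most for NU7441. NU7441 against Ctrl had 776, against 1287 with a stricter filter, 1296 with protein-coding genes only, 2706 with only the groups compared, 5011 without Enza 1 and CC-115+Enza 1 and 1182 with DESeq2. NU7441+Enza against Enza had 87, against 619 with no filter, 148 with the stricter filter, 196 with protein-coding genes, 0 with only the groups compared, 598 without those 2 libraries and 341 with DESeq2; of the 10 genes 1 was called, against 0 with only the groups compared and 3 without those libraries. NU7441 against CC-223 had 1672, against 4228 with only the groups compared and 5824 without the 2 libraries. The NU7441 interaction had 0, against 23 with no filter and 3 without the 2 libraries. The CC-223 interaction had 86, against 201 with no filter, 134 with the stricter filter, 139 with protein-coding genes, 444 without the 2 libraries and 192 with DESeq2. The CC-115 interaction had 747, against 166 with only the groups compared and 1425 without the 2 libraries, where 1 of the 10 genes was called. With only the groups compared, CC-223 against Ctrl had 9382 (5456 in all 8 groups, 9899 without the 2 libraries), Enza against Ctrl 1053 (3679), with 3 of the 10 genes in place of 6, CC-115+Enza against Enza 8115 (13415) and CC-223+Enza against Enza 3863 (6398). The cause of these shifts was not tested.

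Leaving out 1 library at a time gave 76 to 813 genes for NU7441 against Ctrl (lowest without NU7441 2), with 1 to 4 of the 10 genes, 0 to 1173 for NU7441+Enza against Enza, with 0 to 1, 1808 to 4998 for Enza against Ctrl, 388 to 1250 for the CC-115 interaction, with 0 to 1, 47 to 117 for the CC-223 interaction, 877 to 1686 for NU7441 against CC-223 and 4902 to 8538 for CC-115 in 22Rv1. Where this left 1 library in a 22Rv1 group, that library was assumed to vary like the others.

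Replicate numbers did not pair the libraries: over 84 same-numbered C4-2 pairs the mean correlation of deviations was −0.0195, 5 pairs were over 0.1, and 3 of 24 libraries correlated best with their own number. A replicate block gave 43 genes for NU7441+Enza against Enza, and IRS2 in NU7441 against Ctrl stayed at 0.63 (adjusted p = 0.0527). The block also ended the calls of IRS1 in NU7441 against CC-223 (0.0625) and INSR between untreated lines (−0.25, 0.122), and no other call among the 85.

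Scaling by total counts would shift log2 fold changes by 0.224 in CC-115+Enza and 0.153 in CC-223+Enza against Enza, 0.167 in the CC-115 interaction, −0.159 in 22Rv1, 0.268 in the difference between lines and 0.352 between untreated lines. Groups of 2 or 3 libraries at 1 dose and 1 time limit all comparisons.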
